A study of Mus musculus with 27 samples.

Results

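The replication-dependent histone genes were taken as every gene of the deposited 9-library expression table whose symbol starts with Hist1, Hist2, Hist3 or Hist4. This gave 69 genes of 24953. By symbol, 6 encode linker histone H1, 19 encode H2A, 19 encode H2B, 12 encode H3 and 13 encode H4. On the mouse genome build mm9 (GENCODE vM1 annotation), 55 belong to the Hist1 cluster, of which all but Hist1h2al lie within chr13:21807632-24026720. The Hist2 cluster at chr3:96023839-96082924 holds 10, the Hist3 cluster at chr11:58762413-58770176 holds 3, and Hist4h4 stands alone at chr6:136752589-136752900. A single exon was annotated for 63 of them, and 2, Hist2h3c2 and Hist3h2bb-ps, were annotated as pseudogenes. RNA-seq had been run on mK4 cells, a line derived from mouse metanephric mesenchyme, the tissue that gives rise to the nephrons of the kidney. The 3 groups of 3 libraries each were the parental line (control), cells in which CRISPR-Cas9 had removed the exon with the Runx1 start codon (Runx1KO), and cells in which the exons with the start codons of Zeb1 and Zeb2 had been removed (ZebDKO). All cells were grown in medium with fetal bovine serum and taken near confluency. The replicates were parallel cultures, and how many edited clones were sequenced is not given in the sources used here, so clone and genotype cannot be told apart and p-values measure the spread between cultures.

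Replication-dependent histone genes supply the bulk of the nucleosome proteins while DNA is copied in S phase. Their genes lie in clusters, mostly lack introns, and give mRNAs that end in a conserved stem-loop in place of a poly(A) tail. The stem-loop is bound by SLBP, and the transcription of the clusters is driven by NPAT downstream of cyclin E. Many H2A and H2B genes sit head to head and share the DNA between their starts. Some of these genes also give polyadenylated mRNAs in cells that have left the cycle, and libraries made from poly(A) RNA hold mainly such forms.

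Values are TPM, reads per unit of gene length, set to a fixed total in each library, so levels can be compared between genes. The sum of the 69 genes was between 0.226% and 0.289% of all TPM in the 6 control and Runx1KO libraries and between 0.662% and 0.695% in the 3 ZebDKO libraries. TPM keeps no read number, so depth is unknown, while between 12541 and 12697 genes reached 1 TPM in each library. The labels describe RNA isolation and library preparation of the ZebDKO cells in other words than those of the control and Runx1KO cells, with a poly(A) step named for the latter alone, and the study's methods give poly(A) RNA for all. Library preparation and genotype therefore cannot be told apart in any comparison with ZebDKO. Runx1 was at 18.7, 15.6 and 17.9 TPM in control, 30.3, 30.1 and 28.5 TPM in Runx1KO and 9.4, 10.5 and 10.4 TPM in ZebDKO libraries. Zeb1 was at 15.1, 14.2 and 15.6 TPM in control, 0.1, 0.2 and 0.2 TPM in Runx1KO and 16.8, 16.6 and 14.8 TPM in ZebDKO libraries. Zeb2 was at 5.5, 4.9 and 5.2 TPM in control, 0.2 TPM in each Runx1KO library and 1.7, 1.8 and 1.6 TPM in ZebDKO libraries. Whole-gene values count exons outside the deleted ones, so the levels of Runx1 in Runx1KO and of Zeb1 in ZebDKO do not check those deletions. Of 11 genes that mark metanephric mesenchyme, 7 reached 1 TPM in a library, with a summed level of 671 to 683 TPM in control, 717 to 785 TPM in Runx1KO and 615 to 646 TPM in ZebDKO libraries, while the 4 endothelial and the 4 immune markers summed to at most 5.8 and 3.4 TPM. Six2, Wt1 and Hoxd11, which define that mesenchyme, were at or near 0 in all 9 libraries, the highest value being 0.3 TPM. Osr1, Gdnf and Eya1 of the mesenchyme list and Cdh5 of endothelium fell in Runx1KO cells, Cdh5 by less than 2-fold in the 6-library table (-0.85), while Pax2 averaged 470.0 TPM there against 313 TPM in control and Sall1 65.7 against 52.1 TPM, neither called. In ZebDKO cells Osr1 and the meiotic gene Sycp3 fell and Gdnf rose. Their part in the histone results was not tested. In bulk RNA, fewer cells of a type and less RNA per cell cannot be told apart.

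Sequences that bear on the results are shown first. The stem-loops of 4 genes follow, each with the 5 bases on either side, with the 16 bases of the stem and loop in capitals. Hist1h1c stands for H1, whose stem differs from those of H4, and Hist1h2ap is the H2A gene with the highest level. Hist1h4b has a stem that starts with GGTCC, as Hist1h4j does, while the other H4 genes have GGCCC. Hist1h3c stands for the 3 of 11 H3 genes whose loop differs in its last base, a form also present in 1 H1, 1 H2A and 4 H2B genes.
Hist1h1c (chr13:23831381-23831396, plus strand): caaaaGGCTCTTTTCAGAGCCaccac
Hist1h4b (chr13:23849235-23849250, plus strand): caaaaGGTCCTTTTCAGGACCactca
Hist1h2ap (chr13:21924898-21924913, minus strand): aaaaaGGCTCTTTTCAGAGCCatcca
Hist1h3c (chr13:23836916-23836931, minus strand): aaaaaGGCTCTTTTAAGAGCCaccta

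Most H2A genes of the Hist1 cluster, Hist1h2aa and Hist1h2al excepted, have near-identical coding sequences, which matters for how reads are assigned. The first 150 of the 390 coding bases are given for 4 of them, with bases that differ from Hist1h2ap in capitals. Hist1h2ao is identical to Hist1h2ap over all 390 bases.
Hist1h2ap (gene at chr13:21924926-21925444, minus strand): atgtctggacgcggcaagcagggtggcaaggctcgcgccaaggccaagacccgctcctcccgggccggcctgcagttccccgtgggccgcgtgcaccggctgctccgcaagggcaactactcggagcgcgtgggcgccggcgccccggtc
Hist1h2ag (gene at chr13:22134348-22134818, minus strand): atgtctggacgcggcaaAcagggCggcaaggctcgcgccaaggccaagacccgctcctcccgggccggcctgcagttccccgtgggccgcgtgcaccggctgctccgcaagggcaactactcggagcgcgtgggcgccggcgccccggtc
Hist1h2ac (gene at chr13:23773336-23775817, minus strand): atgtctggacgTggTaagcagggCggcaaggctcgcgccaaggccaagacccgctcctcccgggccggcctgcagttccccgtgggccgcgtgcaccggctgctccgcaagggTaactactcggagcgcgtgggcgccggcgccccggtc
Hist1h2ae (gene at chr13:23662386-23663089, minus strand): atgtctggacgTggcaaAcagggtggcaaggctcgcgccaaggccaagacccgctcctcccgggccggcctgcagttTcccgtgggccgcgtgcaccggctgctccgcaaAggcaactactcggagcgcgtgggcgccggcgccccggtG
Over the whole coding sequence, Hist1h2ag differed from Hist1h2ap at 3 bases, Hist1h2ac at 5 and Hist1h2ae at 6.

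The DNA between the start of an H2A gene and the start of its H2B neighbour is given for 3 head-to-head pairs, read towards the H2A gene. Capitals mark, on either strand, CCAAT, the letters bound by NF-Y, the TATA box in the form TATAAA, to which the TATA-binding protein binds, and the octamer ATTTGCAT of Oct-1 family factors.
Hist1h2bq to Hist1h2ao (chr13:21902069-21902235, plus strand): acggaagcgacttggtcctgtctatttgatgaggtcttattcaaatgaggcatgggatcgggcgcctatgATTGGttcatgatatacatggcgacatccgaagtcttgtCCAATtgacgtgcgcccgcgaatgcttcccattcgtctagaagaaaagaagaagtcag
Hist1h2bj to Hist1h2ag (chr13:22134819-22135082, minus strand): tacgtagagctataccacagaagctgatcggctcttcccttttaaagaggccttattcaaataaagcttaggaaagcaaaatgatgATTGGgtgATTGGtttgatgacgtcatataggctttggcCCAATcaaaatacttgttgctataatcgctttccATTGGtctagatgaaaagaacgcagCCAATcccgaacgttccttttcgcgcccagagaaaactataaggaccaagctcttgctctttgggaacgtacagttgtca
Hist1h2bg to Hist1h2ae (chr13:23663090-23663264, minus strand): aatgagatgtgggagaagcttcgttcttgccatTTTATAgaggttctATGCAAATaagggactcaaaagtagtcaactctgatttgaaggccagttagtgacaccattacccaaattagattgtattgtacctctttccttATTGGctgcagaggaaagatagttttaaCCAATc
The 167 bases between Hist1h2br and Hist1h2ap were identical to those between Hist1h2bq and Hist1h2ao.

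Summed over the 69 genes, the level was 2335, 2389 and 2258 TPM in control, 2699, 2888 and 2778 TPM in Runx1KO and 6806, 6619 and 6948 TPM in ZebDKO libraries. The groups did not overlap, and the mean was 1.20 times that of control in Runx1KO and 2.92 times in ZebDKO cells. The classes took unequal parts in this. H2A, which pairs with H2B in the nucleosome, summed to 390.0, 360.8 and 371 TPM in control, 438.4, 449.6 and 464 TPM in Runx1KO and 4552, 4359 and 4612 TPM in ZebDKO libraries. H2B summed to 620.9, 622.9 and 641.6 TPM in control, 1000.4, 1026.8 and 1026.3 TPM in Runx1KO and 1244.9, 1284.9 and 1294.4 TPM in ZebDKO libraries. Thus H2A was 12.1 times and H2B 2.03 times control in ZebDKO cells, while in Runx1KO cells the ratios were 1.21 for H2A and 1.62 for H2B. The linker histones H1 averaged 1029 TPM in control, 1046 TPM in Runx1KO and 699.9 TPM in ZebDKO cells, and without Hist1h1c, the most abundant of them, 118, 164 and 124 TPM, so that the lower H1 sum of ZebDKO cells rests on Hist1h1c. H3 averaged 160.0, 149 and 185 TPM and H4 averaged 136, 125 and 124 TPM in the same order. These sums hold identical copies whose reads cannot be told apart, and whether such reads were split or counted more than once is not given in the sources used here. Without Hist1h2ao and Hist1h2ap the H2A sum was 3.22 times control in ZebDKO cells.

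**Figure D1:**
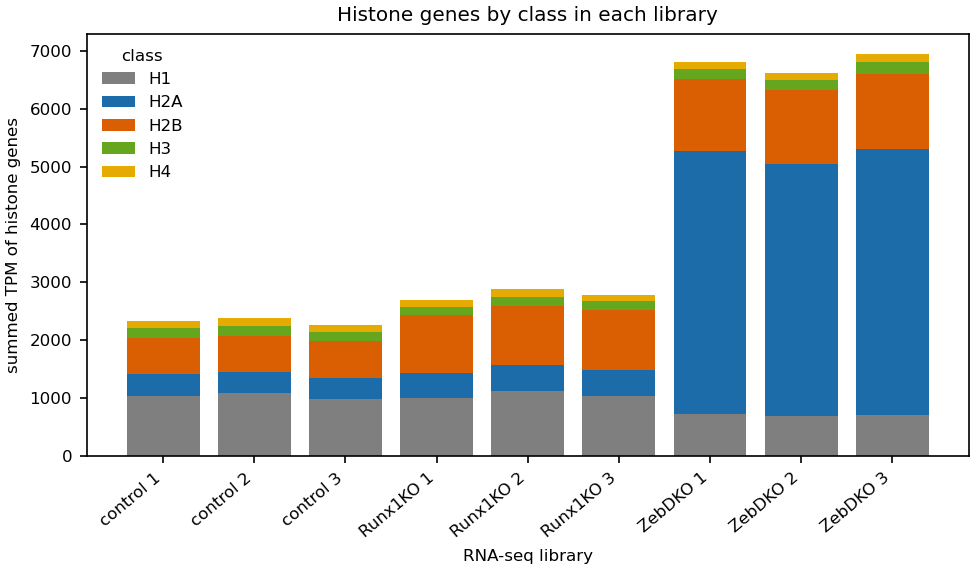
Stacked bars give the summed TPM of the H1, H2A, H2B, H3 and H4 genes in each of the 9 RNA-seq libraries. The H2A part is 361 to 390 TPM in control libraries and 4359 to 4612 TPM in ZebDKO libraries, and the H2B part is higher in every Runx1KO and ZebDKO library than in any control library.

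The largest change in these genes was the rise of H2A genes of the Hist1 cluster in ZebDKO cells. Hist1h2ap was at 4.7, 5.5 and 6.1 TPM in control, 6.8, 8.2 and 10.1 TPM in Runx1KO and 1846.2, 1775.6 and 1876.8 TPM in ZebDKO libraries. Its log2 fold change against control was 8.16 (SE 0.076, adjusted p = 1.75e-09 from limma over all genes tested, n = 3 against 3). It had the highest level of all histone genes in ZebDKO libraries, and its copy Hist1h2ao came next, from 3.8, 4.5 and 5 TPM to 1511.3, 1453.8 and 1536.9 TPM. Hist1h2ag was at 3.4, 3.6 and 5.1 TPM in control, 5.7, 6.9 and 2.4 TPM in Runx1KO and 454, 422.2 and 444.5 TPM in ZebDKO libraries, a log2 fold change of 6.47 (SE 0.12, limma adjusted p = 2.38e-08). Hist1h2ac rose from 10.7, 8.4 and 10.7 TPM to 193, 180.6 and 203.9 TPM, a log2 fold change of 4.15 (SE 0.093, limma adjusted p = 5.3e-08). In all 4 of these genes the lowest ZebDKO library stood far above the highest of the other 6.

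Of the 16 H2A genes that passed the filter of 1 TPM in 3 of 6 libraries, 11 rose over 2-fold in ZebDKO cells at a limma adjusted p under 0.05 and none fell, and the remaining 5 did not pass. Over all 12974 genes tested, 7.48% rose and 7.27% fell by the same rule. Of all 66 histone genes tested, 23 rose and 1 fell. The median log2 fold change was 2.21 for the H2A genes, 0.58 for all histone genes and -0.18 for all genes. Next in size after the 4 genes above were Hist1h2af (log2 fold change 3.54), Hist1h2ah (3.46), Hist1h2ad (3.11) and Hist1h2an (2.87), which stood between 24.2 and 50.3 TPM in the ZebDKO libraries. Hist1h2ab, Hist1h2ai and Hist1h2ak rose by 1.54, 1.37 and 1.04 on the log2 scale and reached at most 17.1 TPM, and the call of Hist1h2ak was lost without control replicate 3 (0.73) or ZebDKO replicate 3 (0.81). Hist1h2af, at 3.4, 0.8 and 0.8 TPM in control, and Hist1h2ak, at 3, 2.3 and 0.9 TPM, passed the filter only with their ZebDKO libraries, so only a rise could be called.

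The 5 H2A genes that did not pass had different levels and places. Hist1h2ae, which lies in the Hist1 cluster, was at 10.4, 8 and 7.6 TPM in control, 10.2, 10.2 and 8.8 TPM in Runx1KO and 11.7, 12.7 and 12 TPM in ZebDKO libraries. Hist3h2a, the most abundant H2A gene of control cells, was at 281.6, 255.6 and 258.7 TPM in control, 328.9, 332.4 and 347.6 TPM in Runx1KO and 291.7, 263.9 and 264.5 TPM in ZebDKO libraries. Its control and ZebDKO libraries overlapped. The copies Hist2h2aa1 and Hist2h2aa2 had log2 fold changes of 0.59 each, and Hist2h2ac, at most 2.4 TPM in any library, one of 0.33. The H2A genes left, Hist1h2aa, Hist1h2al and Hist2h2ab, stayed between 0 and 1.1 TPM and were not tested.

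**Figure D2:**
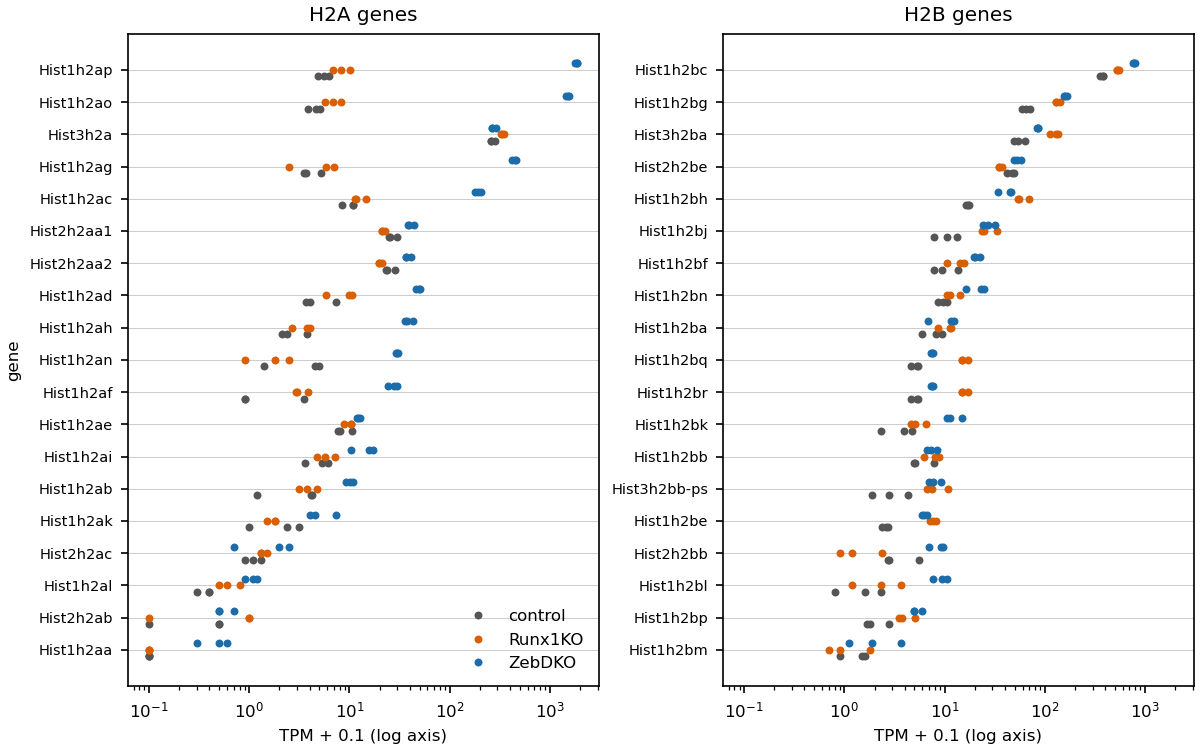
Each point is the TPM of an H2A gene (left) or H2B gene (right) in 1 of 9 libraries, plus 0.1 and on a log axis, with genes ordered by their mean and colours for control, Runx1KO and ZebDKO. Most H2A genes of the Hist1 cluster sit far to the right in ZebDKO, up to 1876.8 TPM for Hist1h2ap, while 11 H2B genes are called higher in ZebDKO and 8 in Runx1KO.

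Because these genes are near copies, the values of single genes are uncertain. In each of the 9 libraries the TPM of Hist1h2ao was 0.809 to 0.824 times that of Hist1h2ap, beside an inverse ratio of 0.819 of their RefSeq lengths (552 and 452 bases). Hist1h2bq and Hist1h2br were equal in all 9 libraries. Hist2h2aa1 over Hist2h2aa2 stayed between 1.06 and 1.07, and Hist2h3c1 over Hist2h3c2 between 0.973 and 0.982. The copies of such a pair cannot be told apart in this table. The other deposited table, of the 6 control and Runx1KO libraries, lists Hist1h2ao at 0 in each of them and Hist1h2ap at 10.01 to 20.63 TPM, so shared reads had been assigned differently there.

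Among H2A genes, the size of the rise in ZebDKO cells went with how much coding sequence an H2A gene shares with Hist1h2ap. The measure was the percentage of a gene's 50-base coding words, that is every run of 50 consecutive bases, that also occur in Hist1h2ap. Hist1h2ag shared 91.8% of its words, Hist1h2ad 78.9%, Hist1h2ah 77.9% and Hist1h2ac 77.1%. By contrast Hist2h2aa1 and Hist2h2aa2 shared 22.9%, Hist3h2a 12.3% and Hist2h2ac 9.76%. Over the 14 tested H2A genes other than Hist1h2ao and Hist1h2ap, Pearson's r between shared words and log2 fold change was 0.83 and Spearman's rho 0.87. These genes are not independent, since they share reads, libraries and base composition. Hist1h2ae with 57.8% of its words shared and Hist1h2ai with 69.2% had log2 fold changes of 0.45 and 1.37, while Hist1h2af with 60.7% rose by 3.54 on the log2 scale. Hist1h2ac has 88.4% of its annotated transcript in words found in no other histone gene of the table. The part that shared reads have in the rise of genes other than Hist1h2ap was not tested, since the files hold no reads.

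**Figure D3:**
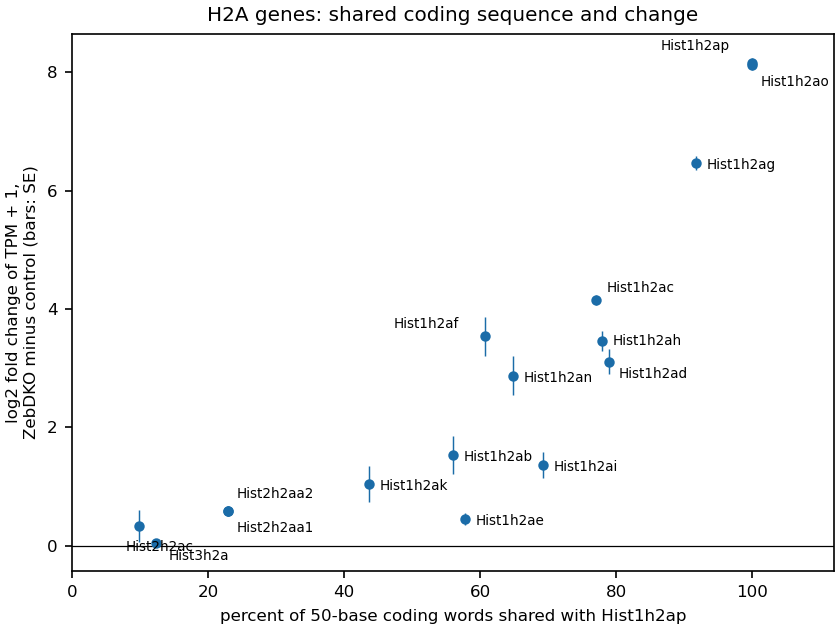
Each point is 1 of the 16 tested H2A genes, with the percentage of its 50-base coding words that occur in Hist1h2ap on the horizontal axis and its log2 fold change of TPM + 1 (bars: SE), ZebDKO minus control, on the vertical axis. Genes with over 75% of words shared have log2 fold changes of 3.11 to 8.16, and Hist1h2ae at 57.8% lies near 0.45.

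Since mature histone mRNAs mostly lack poly(A) tails, other RNAs that lack such tails or stay in the nucleus are given beside this result, chosen after their values were seen. Rmrp, the RNA of RNase MRP, was at 0, 0.7 and 0.7 TPM in control, 0, 0.7 and 0 TPM in Runx1KO and 4.8, 5.5 and 8.2 TPM in ZebDKO libraries. Rmrp was called (log2 fold change 2.30), but it passed the filter on low values through its ZebDKO libraries alone. Rn45s, the ribosomal RNA precursor, was at 283.5 to 365.9 TPM in control and at 329.2, 411.3 and 687.4 TPM in ZebDKO libraries and was not called. Rpph1, the RNA of RNase P, was at 0.6, 5.3 and 0.6 TPM in control and 2, 6.5 and 13.3 TPM in ZebDKO libraries and was not called. The nuclear RNAs Malat1 and Neat1 were lower in ZebDKO than in control libraries, Malat1 at 20.2 to 28.6 against 30.6 to 37.3 TPM (log2 fold change -0.55, not called) and Neat1 at 6.5 to 7.7 against 14.1 to 19.1 TPM (-1.14, called). Of 85 small nucleolar and Cajal body RNA genes tested, 7 rose and 20 fell in ZebDKO cells, beside 7.48% and 7.27% of all genes tested. Their part in the rise of H2A genes was not tested. Of the 25 H3 and H4 genes tested, 1 rose by the same rule, beside 7.48% of all genes tested.

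In Runx1KO cells the histone genes that rose over 2-fold were all H2B genes. Of the 66 histone genes tested, 8 rose over 2-fold at a limma adjusted p under 0.05 and 1 fell, beside 7.91% of all 13067 genes higher and 5.1% lower by the same rule. The median log2 fold change was 0.51 over the 19 H2B genes, 0.45 over the 6 H1 genes, 0.24 over the 16 H2A genes, 0.07 over the 12 H3 genes, -0.11 over the 13 H4 genes and -0.06 over all genes. Hist1h2bh showed the largest rise, from 17.5, 16.4 and 17.1 TPM in control to 69.2, 55.8 and 54 TPM in Runx1KO, with 34.4, 44.4 and 45.9 TPM in ZebDKO libraries. Its log2 fold change in Runx1KO was 1.74 (SE 0.091, limma adjusted p = 3.7e-06). The copies Hist1h2bq and Hist1h2br were each at 5.2, 4.5 and 5.3 TPM in control, 14.9, 16.9 and 14.7 TPM in Runx1KO and 7.4, 7.6 and 7.2 TPM in ZebDKO libraries. Their log2 fold change in Runx1KO was 1.46 (SE 0.078, limma adjusted p = 4.19e-06).

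Hist1h2bg was at 59.8, 64.8 and 71.8 TPM in control, 140.3, 129.2 and 129.4 TPM in Runx1KO and 159.5, 167.8 and 154.3 TPM in ZebDKO libraries. Hist3h2ba, the H2B gene of the Hist3 cluster, was at 48.8, 63.2 and 54.4 TPM in control, 112.1, 135.2 and 129.1 TPM in Runx1KO and 85.8, 83.2 and 85.6 TPM in ZebDKO libraries. Hist1h2bj was at 7.8, 13.1 and 10.4 TPM in control, 23.7, 24.9 and 33.5 TPM in Runx1KO and 24.1, 26.8 and 31.6 TPM in ZebDKO libraries. The call of Hist1h2bg was lost without control replicate 1 (0.95) or Runx1KO replicate 1 (0.98). In all of these the control libraries lay below every Runx1KO library. The remaining members of the 8, Hist1h2be and the pseudogene Hist3h2bb-ps, rose by 1.31 and 1.26 on the log2 scale from at most 4.2 TPM. Hist1h2bc, the most abundant H2B gene, went from 378.6, 359.8 and 381.5 TPM to 521.4, 526.4 and 549.2 TPM, a log2 fold change of 0.51 (SE 0.033, limma adjusted p = 1.04e-05) that did not reach 2-fold. Hist2h2be, the abundant H2B gene of the Hist2 cluster, was at 49.3, 42.2 and 47.2 TPM in control and 34.8, 37.5 and 34.7 TPM in Runx1KO libraries, below every control library.

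**Figure D4:**
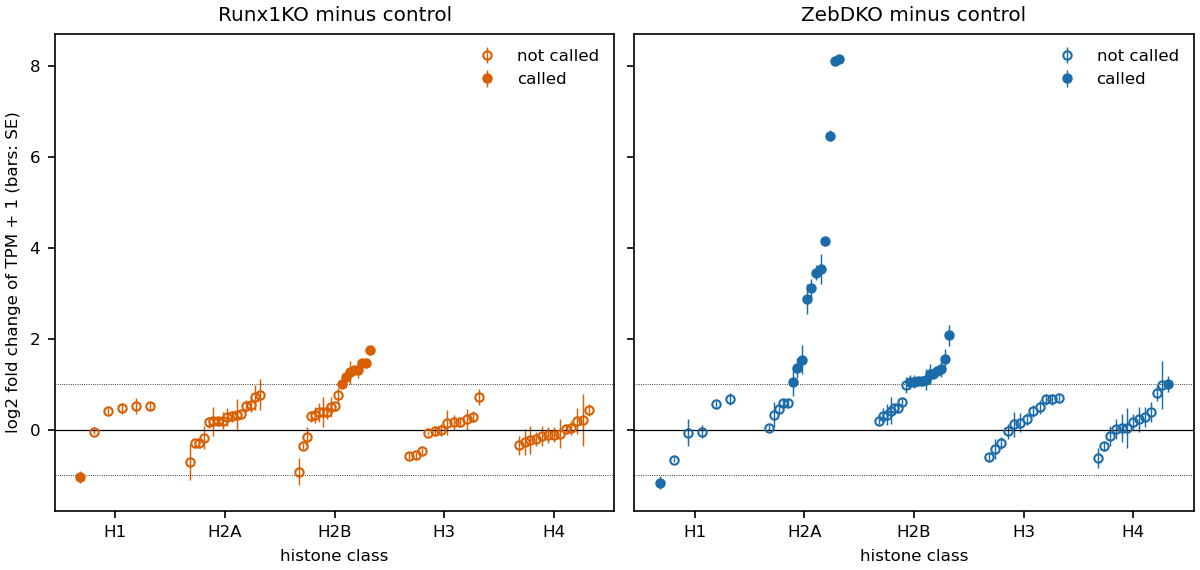
Log2 fold changes of TPM + 1 (bars: SE) of the 66 tested histone genes, by class, for Runx1KO minus control (left) and ZebDKO minus control (right), with filled points for genes past 2-fold at a limma adjusted p under 0.05. The 8 genes called higher in Runx1KO are all H2B genes, and in ZebDKO 11 H2A and 11 H2B genes and 1 H4 gene are.

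The 6-library table gave a different count for the H2B genes. By the same test on its values, 3 of 52 histone genes rose and 1 fell in Runx1KO cells, beside 7.57% of all 12375 genes higher and 4.99% lower, so the count of histone genes is near the share of all genes. The 3 were H2B genes, Hist1h2bq, Hist3h2ba and Hist1h2bj, with log2 fold changes of 1.76, 1.24 and 1.10. The 1 that fell was an H3 gene. Hist1h2bg was at 17.81, 17.19 and 21.18 TPM in control and 18.42, 18.03 and 20.55 TPM in Runx1KO libraries of that table, with a log2 fold change of 0.02 beside 1.01 in the 9-library table. Hist1h2bh had a log2 fold change of 0.64, Hist1h2be of 0.23, Hist1h2br of 0.47 and Hist3h2bb-ps of 0.68 there, none of which was called. The mean control level of Hist1h2bh was 17 TPM in one table and 2.96 TPM in the other. Hist1h2bq, Hist3h2ba and Hist1h2bj were thus called in both tables, and the other 5 genes in the 9-library table alone.

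In ZebDKO cells 11 of the 19 H2B genes rose and none fell, beside 7.48% of all genes tested higher and 7.27% lower. The median log2 fold change was 1.06 over the H2B genes and -0.18 over all genes. Hist1h2bc was at 764.7, 778.3 and 801.6 TPM in these libraries, and its log2 fold change against control was 1.06 (SE 0.033, limma adjusted p = 1.98e-07). Hist1h2bl rose from 2.2, 0.7 and 1.5 TPM to 7.5, 10.6 and 9.3 TPM (log2 fold change 2.07) and Hist1h2bk from 2.2, 3.8 and 4.6 TPM to 11.3, 14.7 and 10.4 TPM (log2 fold change 1.56). Hist1h2bl passed the filter only with its ZebDKO libraries, so only a rise could be called. Hist1h2bj, Hist1h2bg, Hist1h2bh, Hist3h2bb-ps and Hist1h2be, which had also risen in Runx1KO cells, rose by 1.34, 1.28, 1.23, 1.22 and 1.06 on the log2 scale. They are 62.5% of the 8 genes higher in Runx1KO and 21.7% of the 23 higher in ZebDKO, and both comparisons use the same control libraries. The same overlap over all genes was not counted. Hist2h2bb, Hist1h2bn and Hist1h2bp rose by 1.10, 1.06 and 1.05, and each lost its call when some single libraries were left out: Hist2h2bb without control replicate 1 or 3 (0.97 and 0.95), Hist1h2bn without control replicate 3 or ZebDKO replicate 1 or 2 (0.95 to 0.998), and Hist1h2bp without control replicate 1 or 2 or ZebDKO replicate 1 (0.95 to 0.98).

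Head-to-head pairs put H2A and H2B genes side by side. There were 13 pairs of an H2A and an H2B gene on opposite strands with 167 to 305 bases between their starts, and in 12 of them both genes were tested. In ZebDKO cells the H2A gene had the larger log2 fold change in 8 pairs and the H2B gene in 4. Hist1h2ao stood at 1453.8 to 1536.9 TPM there beside 7.2 to 7.6 TPM for Hist1h2bq, so that the ratio of the H2A to the H2B gene was 204, 191 and 213 in ZebDKO and 0.731, 1 and 0.943 in control libraries. For Hist1h2ag over Hist1h2bj the ratio was 18.8, 15.8 and 14.1 in ZebDKO and 0.436, 0.275 and 0.49 in control libraries. The pair of Hist1h2ae and Hist1h2bg went the other way, with ratios of 0.073, 0.076 and 0.078 in ZebDKO and 0.174, 0.123 and 0.106 in control libraries. In Runx1KO cells the H2B gene had the larger log2 fold change in 10 of the 12 pairs, with the H2B gene alone called in 5 and an H2A gene in none. Of those 5 H2B genes, Hist1h2bq and Hist1h2bj were also called in the 6-library table, and Hist1h2br, Hist1h2bg and Hist3h2bb-ps were not. The pairs Hist1h2ao with Hist1h2bq and Hist1h2ap with Hist1h2br are copies that cannot be told apart, and the counts for both knockouts hold each of them. Differences of any size were counted, also those within their SEs. Examples are Hist1h2ai at 0.20 (SE 0.19) and Hist1h2bl at 0.39 (SE 0.33) in Runx1KO cells. Others are Hist1h2ak at 1.04 (SE 0.30) and Hist1h2bn at 1.06 (SE 0.15) in ZebDKO cells. The larger change in each pair was not counted in the 6-library table.

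**Figure D5:**
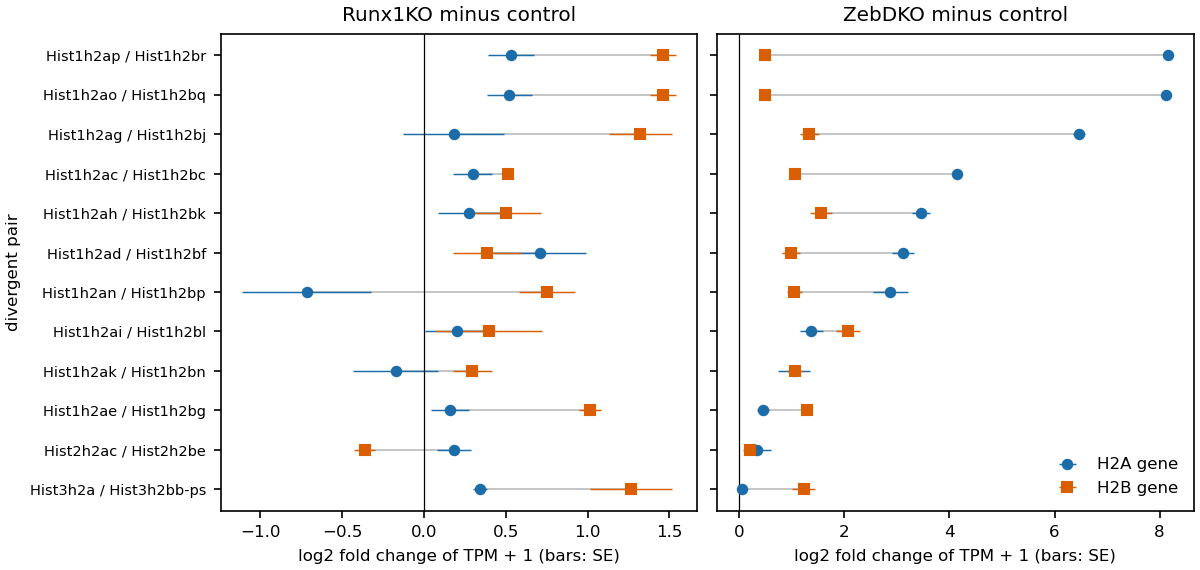
For each of 12 head-to-head pairs a line joins the log2 fold change of TPM + 1 (bars: SE) of the H2A gene (circle) and of the H2B gene (square), for Runx1KO minus control (left) and ZebDKO minus control (right), each panel with its own horizontal scale. The H2B gene lies to the right in 10 pairs in Runx1KO, and the H2A gene in 8 pairs in ZebDKO. Both counts hold the copies Hist1h2ao / Hist1h2bq and Hist1h2ap / Hist1h2br as separate pairs.

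Linker histones, which bind the DNA between nucleosomes, moved in both directions. Hist1h1c, the most abundant histone gene of control cells, was at 907.6, 971.7 and 854.3 TPM in control, 837.1, 935 and 872.5 TPM in Runx1KO and 614.2, 551.5 and 563.1 TPM in ZebDKO libraries. All ZebDKO libraries lay below the others, with a log2 fold change of -0.66 (SE 0.057, limma adjusted p = 2.85e-05) that did not reach 2-fold. Hist1h1d was at 46.2, 49.4 and 41.8 TPM in control, 67.8, 72.9 and 59.1 TPM in Runx1KO and 15.9, 19.8 and 24.7 TPM in ZebDKO libraries. It was the 1 histone gene called lower in ZebDKO cells, with a log2 fold change of -1.16 (SE 0.14, limma adjusted p = 0.000182), which became -0.97 under median-ratio scaling. Hist1h1a and Hist1h1b, at 23.5 to 34.1 TPM in control, had log2 fold changes of 0.57 and 0.67 in ZebDKO and of 0.42 and 0.47 in Runx1KO cells. In Runx1KO cells Hist1h1a, Hist1h1b, Hist1h1d and Hist1h1e lay above every control library at adjusted p-values of 0.00108 to 0.0257 from limma, and 30% of all genes were higher by this rule, without overlap and at an adjusted p under 0.05. None reached 2-fold, and Hist1h1d had a log2 fold change of 0.53. Hist1h1e was not called in either knockout, with log2 fold changes of -0.04 in ZebDKO and 0.52 in Runx1KO cells.

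Testis histones were near the lower end. Hist1h1t, the H1 of spermatocytes, was at 2.5, 2.1 and 2.6 TPM in control, 0.8, 0.8 and 0.4 TPM in Runx1KO and 0.9, 3.3 and 3.2 TPM in ZebDKO libraries. It was the 1 histone gene called lower in Runx1KO cells, with a log2 fold change of -1.04 (SE 0.13, limma adjusted p = 0.000297). It passed the filter on low values through its control libraries alone, so it was not tested when any of them was left out, and the call was lost without Runx1KO replicate 3 (-0.91) and under median-ratio scaling (-0.99). Hist1h2ba, the testis H2B, was between 5.8 and 12.3 TPM in the 9 libraries of this table and at 0 in all 6 of the other. Hist1h2aa, its head-to-head partner, was at 0 in control and Runx1KO and at most 0.5 TPM in ZebDKO libraries.

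H3 and H4 genes, which form the tetramer at the core of the nucleosome, are given next. None of 12 H3 genes was called in either knockout against control by limma in the 9-library table. At an unadjusted p under 0.05 and with no limit on fold, 5 of them differed in Runx1KO and 6 in ZebDKO cells. The share of all genes by this rule was not counted. Without overlap and at a limma adjusted p under 0.05, 1 of the 12 was higher and 3 were lower in Runx1KO cells. By that rule 30% of all genes were higher and 39.7% lower. Hist1h3g, the most abundant of them, was at 37.8, 36.3 and 36 TPM in control, 34.3, 35.8 and 33.7 TPM in Runx1KO and 22.9, 21.2 and 27.5 TPM in ZebDKO libraries, where its log2 fold change was -0.61 (SE 0.088, limma adjusted p = 0.000435). The copies Hist2h3c1 and Hist2h3c2 were each lower than control in Runx1KO (log2 fold change -0.57) and higher in ZebDKO cells (0.67), neither called in the 9-library table. Hist2h3c1 was at 24.6, 21.3 and 19.9 TPM in control, 14.4, 15.1 and 13.7 TPM in Runx1KO and 30.4, 34 and 42.5 TPM in ZebDKO libraries, and the 3 groups did not overlap. In the 6-library table its control (9.2, 9.94 and 11.04 TPM) and Runx1KO libraries (7.18, 9.8 and 8.57 TPM) overlapped. There Hist2h3c2 was at 15.28, 8.87 and 9.82 TPM in control and 7.39, 4.75 and 2.84 TPM in Runx1KO libraries. By the same test on that table, 1 of 11 H3 genes was called lower in Runx1KO cells. Between ZebDKO and Runx1KO cells Hist2h3c1 differed by 1.24 on the log2 scale (SE 0.11, limma adjusted p = 3.49e-05). Of 13 H4 genes, Hist1h4d alone was called, from 1.8, 3.1 and 1.5 TPM in control to 4.7, 5.5 and 5.2 TPM in ZebDKO libraries, just past the 2-fold limit, and it fell to 0.85 to 0.99 on the log2 scale when control replicate 1 or 3 or ZebDKO replicate 2 or 3 was left out. Hist1h4i, the most abundant H4 gene, was at 73.5, 90.5 and 70 TPM in control, 65.9, 83.6 and 55.3 TPM in Runx1KO and 60.4, 56.9 and 62.3 TPM in ZebDKO libraries.

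The clusters differed in level and direction. Hist2 genes averaged 164 TPM together in control, 122 TPM in Runx1KO and 230.0 TPM in ZebDKO cells, and none of the 9 tested reached 2-fold in Runx1KO. Of these 9, 7 lay below every control library in Runx1KO at a limma adjusted p under 0.05, beside 39.7% of all genes by this rule, namely Hist2h2aa1, Hist2h2aa2, Hist2h2bb, Hist2h2be, Hist2h3b, Hist2h3c1 and Hist2h3c2. Their log2 fold changes were -0.29 to -0.92, and 2 pairs of them are near-identical copies. In the 6-library table Hist2h2be and Hist2h3c2 again lay below every control library in Runx1KO. There the groups overlapped for Hist2h2aa2, Hist2h2bb, Hist2h3b and Hist2h3c1, and Hist2h2aa1 was not listed. The 3 Hist3 genes averaged 324 TPM together in control, 470.0 TPM in Runx1KO and 366 TPM in ZebDKO cells. Along the Hist1 cluster, Hist1h2ao with its log2 fold change of 8.12 in ZebDKO stood between Hist1h2bq with 0.49 and Hist1h4m with -0.14, and Hist1h2af with 3.54 between Hist1h4h with 0.23 and Hist1h3g with -0.61. Hist4h4 was at 0.9, 1.3 and 1.9 TPM in control, 0.8, 0.4 and 1.9 TPM in Runx1KO and 3.4, 2.5 and 3.4 TPM in ZebDKO libraries.

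Compared directly, 18 of 65 histone genes were higher and 2 lower in ZebDKO than in Runx1KO cells, beside 6.59% of all 13071 genes higher and 9.2% lower. The 18 held the same number of H2A genes as against control, 11, together with 3 H2B, 2 H3 and 2 H4 genes. Hist1h2ap differed by 7.63 (SE 0.11, limma adjusted p = 1.55e-08) and Hist1h2ag by 6.29 (SE 0.28, limma adjusted p = 1.05e-06) on the log2 scale. The H2B genes were Hist2h2bb, Hist1h2bl and Hist1h2bk, at 2.02, 1.68 and 1.06, of which Hist1h2bk lost its call without Runx1KO replicate 1 or ZebDKO replicate 2, and none of the 5 genes called higher in both knockouts differed by this rule. The 2 lower genes were Hist1h1d at -1.69 and Hist1h4k at -1.06, and Hist1h4k lost its call without Runx1KO replicate 3 or ZebDKO replicate 1. Hist1h2ak without ZebDKO replicate 3 and Hist4h4 without Runx1KO replicate 2 did so too. Hist4h4, Hist2h2bb and Hist1h2an passed the filter here only with their ZebDKO libraries, so only a higher level in ZebDKO could be called.

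Chromatin data were deposited for control and Runx1KO cells. ATAC-seq regions, which mark open chromatin, had been split into those that lost, gained or kept their signal in Runx1KO cells. Of the 69 genes, 48 (69.6%) had a region that kept its signal within 1 kb of an annotated start, beside 83.3% of 11245 expressed genes. A region that lost signal lay at the start of 0 of the 69, beside 4.3% of expressed genes, and one that gained signal at 0, beside 6.58%. With regions of any kind counted, the share was thus 69.6%, beside 88.8% of expressed genes. Members with no region at all included the abundant Hist1h1c, as well as Hist1h2ao, Hist1h2ap, Hist1h2bq and Hist1h2br, which lie in duplicated DNA. Runx1 peaks of control cells lay at 31 of the 69 (44.9%), beside 20.2% of expressed genes. Neighbouring genes share peaks, and the 31 rest on 28 distinct ones. Runx2 peaks lay at 36 genes in control and 32 in Runx1KO cells (52.2% and 46.4%), beside 48.8% and 51.5% of expressed genes. Among the H2B genes, 3 of the 8 that rose in Runx1KO cells and 6 of the 11 that were not called had a Runx1 peak. The peak lists hold no replicates, so these shares have no test.

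The DNA after the stop codon and around the starts was searched for the known signals of histone genes. Of 67 members with a coding transcript, 49 held the 16-base stem-loop as in Hist1h1c above, with the inner pair of stem positions next to GG and CC left free on each side, within 200 bases after a stop codon, and 0 of 18613 other coding genes of the table did. With the last 3 of the 4 loop bases left free, as in Hist1h3c above, 63 members (94%) and 35 other genes (0.188%) had a match. AATAAA, the main polyadenylation signal, occurred in this window in 3 members (4.48%) and in 19.5% of the other genes. In 63 RefSeq promoters of the members (GRCm38.p6, 250 bases before to 50 after the start), CCAAT on either strand occurred in 85.7%, beside 37.4% of all 32851 promoters. It was in every one of the 6 H1, 18 H2A, 17 H2B and 10 H3 promoters and in 3 of 12 of H4. ATTTGCAT occurred in 22.2%, all of H2A and H2B genes, beside 1.74% of all promoters, and TATAAA in 55.6%, beside 13.6%. TGTGGT, the core letters of a Runx site, occurred in 9.52% beside 16.8%, and CAGGTG and CAGGTA, the letters of Zeb sites, in 8 and 4 of the 63 beside 6640 and 3929 of the 32851. A match is a run of letters and not a bound site.

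Genes that supply histones or make their mRNAs are given by list, and by the same rule 7.91% of all genes rose and 5.1% fell in Runx1KO and 7.48% rose and 7.27% fell in ZebDKO cells, so that in lists of 10 to 25 genes a count of 0 to 2 is near the share of all genes. Of 14 genes of histone gene transcription, E2f2 alone was called in Runx1KO (log2 fold change -1.09) and Ccne2, a cyclin E, alone in ZebDKO cells (-1.19, and just under 2-fold at -0.996 with median-ratio and -0.994 with quantile scaling). Npat was at 71.2, 62 and 66.6 TPM in control, 61.7, 62.4 and 62 TPM in Runx1KO and 48.8, 53.5 and 48.5 TPM in ZebDKO libraries. Ccne1, the other cyclin E, was at 60.5, 59.4 and 61 TPM in control, 99.3, 100 and 98.3 TPM in Runx1KO and 36.6, 37.2 and 36.9 TPM in ZebDKO libraries. Neither reached 2-fold against control, and for Ccne1 the 3 groups did not overlap. E2f1 was at 45.4 to 46.4 TPM in control and 26 to 27.5 TPM in ZebDKO libraries. Slbp, whose product binds the stem-loop, was at 63.5, 66.4 and 64.3 TPM in control, 65.3, 67.1 and 69.2 TPM in Runx1KO and 63.9, 61.9 and 63.1 TPM in ZebDKO libraries. Of the 15 genes of histone mRNA 3′ end formation and decay in the table, none was called in Runx1KO cells. Zfp473, which encodes the U7-associated protein ZFP100, alone was called in ZebDKO cells, from 0.7 TPM in each control library to 2.3, 2.8 and 2.2 TPM. It passed the filter on low values through its ZebDKO libraries alone, so only a rise could be called, and the call was lost under quantile normalization (0.91). Casp8ap2, which encodes FLASH, was at 28.4 to 30 TPM in control, 22.3 to 23.6 TPM in Runx1KO and 17 to 19.2 TPM in ZebDKO libraries.

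None of 12 histone chaperone genes and none of 10 genes of G2 and mitosis was called in either knockout against control. Of 25 S phase genes, 0 were called in Runx1KO and 1, Orc1, in ZebDKO cells, where it rose from 32.5 to 34.5 TPM to 69 to 70.6 TPM. Of 11 cell cycle brakes and D cyclins, Ccnd2 and Cdkn2b rose in Runx1KO cells by 1.97 and 1.09 on the log2 scale, and in ZebDKO cells Cdkn2b rose by 1.25 and Rb1 fell by 1.47. The median log2 fold change of the S phase genes was -0.0004 in Runx1KO and -0.08 in ZebDKO cells, beside -0.06 and -0.18 over all genes.

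Replacement histones, whose making is not confined to S phase, are given last. Of 11 such genes, 1 was called in each knockout, H1fx, a linker histone. It was at 37.9, 33 and 34.2 TPM in control, 0.2, 0.1 and 0.4 TPM in Runx1KO and 6.8, 5.7 and 7.1 TPM in ZebDKO libraries. H2afz, which encodes H2A.Z, was at 690.8 to 734 TPM in control, 532.2 to 534.9 TPM in Runx1KO and 568.7 to 600.4 TPM in ZebDKO libraries. H2afx, which encodes H2A.X, was at 610.5 to 648.2 TPM in control, 564.9 to 591.3 TPM in Runx1KO and 486.1 to 564.5 TPM in ZebDKO libraries. H3f3b, one of the H3.3 genes, was at 978.5 to 1029.3 TPM in control, 1461 to 1536.8 TPM in Runx1KO and 809.9 to 849.1 TPM in ZebDKO libraries, and H3f3a was at 729.2 to 756.4, 644.3 to 678.8 and 624.4 to 652.1 TPM in the same order. H1f0 was at 453.8 to 501.1 TPM in control and 346.9 to 379.3 TPM over both knockouts. In ZebDKO cells Hist1h2ap stood above each of these replacement genes, at a level that cannot be told apart from that of its copy Hist1h2ao. How their shared reads were counted is not given. The labels name no poly(A) step for the ZebDKO libraries, though the study's methods give poly(A) RNA for all.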

How the data were processed

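RNA-seq of mK4 cells was taken from the TPM tables the authors deposited, 1 of 9 libraries (24953 genes, 1 decimal) and 1 of 6 (2 decimals). The submitters' notes name featureCounts 1.6.2 for ZebDKO libraries, and which pipeline made each table is not given in the sources used here. The peak lists of ATAC-seq and ChIP-seq were also deposited by the authors on mm9. The ChIP-seq lists carry a MACS2 fold enrichment from the authors, and the fold changes and p-values of the authors' own comparisons in the ATAC-seq lists were not used.

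Genes at 1 TPM or more in 3 of the 6 libraries compared were tested on log2(TPM + 1) by limma 3.58.1 (R 4.3.3) with Benjamini-Hochberg adjustment over all genes, 2 groups at a time without a block. This scale understates changes of low genes. A gene was called past 2-fold at an adjusted p under 0.05. The scripts were tested on simulated data. Named were the called genes, the most abundant member of each class and cluster, testis histones, the targeted genes, called genes of the supply and marker lists and 11 set genes of those lists. The members and lists were chosen with earlier results of these data known. Alternatives were other pseudocounts, filters, scalings and fold limits, the 6-library table, a replicate block and leaving out each library.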

Additional observations from a re-analysis of the deposited data

How the results depend on the processing

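Replicate numbers did not pair the libraries, with correlations of same-numbered deviations of -0.049 to 0.04. A fit with the replicate number as a block left the counts at 8 higher and 1 lower (Runx1KO against control), 23 and 1 (ZebDKO against control) and 18 and 2 (ZebDKO against Runx1KO). Median-ratio scaling moved the median of all genes by 0.19 on the log2 scale in ZebDKO against control and by 0.14 against Runx1KO, and the share of calls that were higher from 50.7% to 64.1% and from 41.7% to 52.6% (52.4% with quantile normalization). With a 1.3-fold limit the histone counts became 18 higher and 5 lower, 38 and 4, and 28 and 9 in the same order of comparisons. The 8 higher in Runx1KO were 3 in the 6-library table. The 1 lower in Runx1KO became 2 at a pseudocount of 0.1 or 0.5 and under quantile normalization, and 0 with a 5 TPM filter or median-ratio scaling. The 1 lower in ZebDKO against control became 0 under median-ratio scaling. The 2 lower in ZebDKO against Runx1KO became 4 at a pseudocount of 0.1 or 0.5 and 1 under median-ratio or quantile scaling. Leaving out 1 library gave 7 to 8 higher and 0 to 2 lower, 20 to 23 higher, and 17 to 18 higher and 1 to 3 lower. With identical copies counted once, chosen after seeing the data, the counts were 7 and 1, 22 and 1, and 16 and 2.

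The H2A sum of ZebDKO cells was 4863 TPM under median-ratio scaling, 2674.6 TPM without the most abundant gene and 1174 TPM without Hist1h2ao and Hist1h2ap. The H2B sum of Runx1KO cells was 991 TPM under median-ratio scaling, 887 TPM in the 6-library table and 485.5 TPM without the most abundant gene. Signs turned for small changes only. Hist1h1c in Runx1KO was 0.006 under median-ratio scaling and -0.0927 to 0.0001 when 1 library was left out. Hist3h2a in ZebDKO was -0.0137 under quantile normalization and -0.0046 to 0.0863 when 1 library was left out. Slbp in ZebDKO was 0.1584 under median-ratio and 0.0479 under quantile scaling, and against Runx1KO, under median-ratio scaling, Slbp was 0.053, H2afx 0.0057, H3f3a 0.1137 and H1f0 0.0896. The causes were not tested. Of the values of single genes over all alternatives, 2043 kept direction and call, 40 lost a call, 1 gained one and 10 turned sign. TPM holds no depth, and its 1 decimal limits values near 0.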
